A study of Mus musculus with 6 samples.

Results

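The genes studied here encode oxidative phosphorylation proteins made from nuclear DNA, and they were read in sorted cells of the adult mouse heart. They were taken by symbol from the count table, as every row that begins with Ndufa, Ndufb, Ndufc, Ndufs, Ndufv, Uqcr, Cox4 to Cox8 or Atp5, with Cyc1 and the Sdh genes Sdha to Sdhd. The muscle isoforms Cox6a2, Cox7a1 and Cox8b were set aside and serve as context. The rule found 90 genes among 24062 rows. It took 78 structural subunits, of which 36 belong to complex I, 4 to complex II, 9 to complex III, 14 to complex IV and 15 to complex V. The other 12 are not structural subunits, so the symbols gather a wider set than subunits alone: 8 are assembly factors of complex I, 3 are paralogues of complex IV subunits (Ndufa4l2, Cox7a2l and Cox7b2) and 1, Atp5s, encodes coupling factor B of ATP synthase. Ndufa4 was counted with complex IV, where its protein resides, and Atp5sl with the assembly factors of complex I, since its product (current symbol Dmac2) helps to build the distal membrane arm of that complex.

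Bulk RNA sequencing compared non-cardiomyocytes of Tw2-CreERT2;R26-tdTO mice, all 9 weeks old and all given tamoxifen at 8 weeks. In these animals the Tw2 driver makes a tamoxifen-dependent Cre, which switches on the red protein tdTO permanently, so that Tw2+ means a cell, or the descendant of a cell, in which that driver was active at dosing, not a cell type. Cells were collected 10 days after dosing began, stained with Mitoview633, a dye that marks mitochondria, and sorted on both tdTO and the dye into Tw2+ and Tw2- cells. Both groups carry the same alleles and received the same drug, each holds 3 libraries described as biological replicates, and neither the dye gate nor the number of hearts per library is given in the sources used here.

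Oxidative phosphorylation passes electrons from NADH through complex I, and from succinate through complex II, to ubiquinone, and then by way of complex III and cytochrome c to complex IV, which reduces oxygen. Complexes I, III and IV pump protons across the inner mitochondrial membrane, and complex V, the ATP synthase, uses the gradient to make ATP. Complexes I, III, IV and V also contain subunits encoded by mitochondrial DNA, which were not analysed here, whereas every subunit of complex II comes from the nucleus. Cardiomyocytes are rich in mitochondria and use muscle isoforms of some complex IV subunits.

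The libraries held 11746696 to 16447098 counts each, and the 90 genes took 0.378% to 0.444% of them in Tw2- and 0.330% to 0.354% in Tw2+, before any TMM scaling. Among markers of the cell types a non-cardiomyocyte sort can hold, 2 of 13 fibroblast genes rose in Tw2+ (median 0.66 on the log2 scale). Their summed level was 62850 to 75180 CPM (counts scaled to a common library size) against 38300 to 56360 CPM in Tw2-. All 13 macrophage and monocyte markers fell, from a summed 2859 to 6271 CPM in Tw2- to 188 to 400 CPM in Tw2+, as did all 5 tested granulocyte markers and all 5 tested B cell markers. All 15 cardiomyocyte markers fell as well, from 908 to 1721 CPM in Tw2- to 175 to 575 CPM in Tw2+, and none of them was at 0 in all Tw2+ libraries. Of 12 endothelial markers 4 fell, and the list median was -2.21. Their summed levels overlapped, at 1018 to 2604 CPM in Tw2- and 673 to 1269 CPM in Tw2+. The 1 tested erythroid marker, Alas2, fell (-7.96), and so did 1 of 8 tested pericyte and smooth muscle markers (list median -0.80). Markers of several cell types were thus present in both groups at different levels, and in bulk RNA fewer cells of a type and less RNA per cell cannot be told apart. The part of these cell type differences in the results that follow was not tested, and their values are given where they move with a result.

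Of the 90 genes, 85 passed the filter on low counts, and 2 of these 85 (2.35%) differed between the groups by edgeR's quasi-likelihood test at an adjusted p under 0.05, against 18.2% of all 13180 genes tested. Ndufaf4 was higher in Tw2+ and Atp5sl was lower, and both are assembly factors of complex I rather than subunits. Among all genes tested, 7.41% were higher and 10.8% lower. None of the 74 tested structural subunits passed in edgeR (0 calls). At an unadjusted p under 0.05 there were 9, where 36.7% of all genes reached that level. None passed in limma-voom, which called 15.8% of all genes, and 2 passed in DESeq2, which called Cox7c higher, beside 11.9% of all genes, and Sdha lower, beside 13.9%. The subunits' log2 fold changes, Tw2+ over Tw2- throughout, ran from -0.85 to 0.88 with a median of -0.06, beside a median of 0.00 for all genes. The median of all 85 genes was -0.05, or 0.03 without Tw2+ 3. For 62 of the 74 subunits (83.8%) the 95% interval of the log2 fold change lay within a 2-fold change either way, which held for 42.5% of all genes. The groups did not overlap for 13 subunits (17.6%), 4 higher and 9 lower in Tw2+, whereas 37.4% of all genes showed no overlap (18.2% higher and 19.2% lower). The median biological coefficient of variation was 21.5% for the 85 genes and 25.3% for all genes tested.

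**Figure D1:**
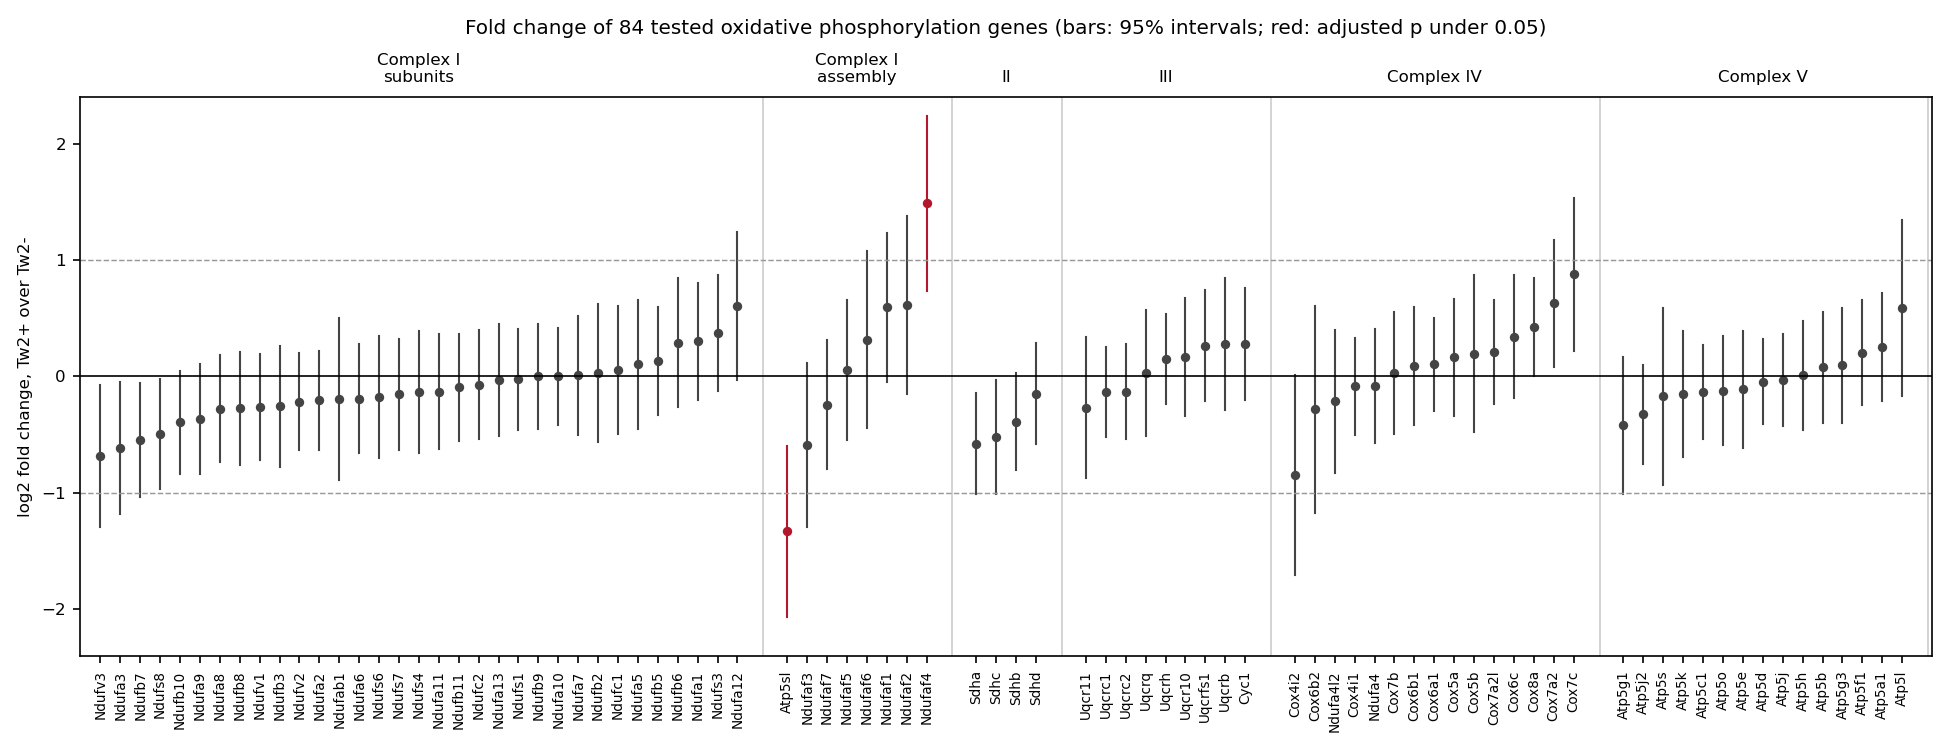
Log2 fold change of 84 of the 85 tested genes, Tw2+ over Tw2-, on the vertical axis, with bars for 95% intervals from edgeR and genes grouped by complex and ordered by value on the horizontal axis. Complex IV includes the paralogues Ndufa4l2 and Cox7a2l, and complex V includes Atp5s. The dashed lines mark log2 values of -1 and 1, and the 2 red genes, Atp5sl and Ndufaf4, passed at an adjusted p under 0.05.

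Ndufaf4 encodes a small protein that works with Ndufaf3 in early complex I assembly. The gene lies on chr4:24898083-24905001 of GRCm38, on the + strand. Its level was 8.02, 7.74 and 10.1 CPM in Tw2- 2, Tw2- 3 and the Tw2- library whose column carries no number, and 23.8, 14.2 and 34.6 CPM in the same order in Tw2+. The groups did not overlap, and Tw2+ 3 was the lowest Tw2+ library. The log2 fold change was 1.49 (SE 0.33), a 2.80-fold increase, at an adjusted p of 0.0186 in edgeR. The call rested on most of the libraries, since it was lost on leaving out any of 4. The edgeR adjusted p was 0.0690 with Tw2- 2 left out, 0.0962 with Tw2- 3 left out, 0.0563 with Tw2+ 2 left out and 0.0553 when the unnumbered Tw2+ library was left out. It was also lost when libraries were scaled to the 13 fibroblast markers, as tried after seeing the data (0.77, edgeR adjusted p = 0.0742).

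Atp5sl lies on chr7:25619414-25625551, on the + strand. It measured 9.35, 9.14 and 6.05 CPM in the Tw2- libraries and 2.33, 3.42 and 4.03 CPM in the Tw2+ libraries, in the same order. No Tw2+ library reached the lowest Tw2- library, which was the unnumbered one. The log2 fold change was -1.33 (SE 0.33), 2.52-fold lower in Tw2+, at an adjusted p of 0.0264 in edgeR. The adjusted p in edgeR rose to 0.0774 without Tw2- 2, 0.106 without Tw2- 3 and 0.116 without Tw2+ 2. The 250 bases before the RefSeq start of each of the 2 called genes, from GRCm38.p6 and both on the + strand, are shown as a description. Their part in the changes was not tested.
Ndufaf4, chr4:24897833-24898082: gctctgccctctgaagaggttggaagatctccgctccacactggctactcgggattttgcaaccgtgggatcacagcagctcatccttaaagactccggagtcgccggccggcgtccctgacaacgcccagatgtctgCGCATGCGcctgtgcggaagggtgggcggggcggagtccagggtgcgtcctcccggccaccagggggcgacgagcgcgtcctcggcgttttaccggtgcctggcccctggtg
Atp5sl (Dmac2), chr7:25619164-25619413: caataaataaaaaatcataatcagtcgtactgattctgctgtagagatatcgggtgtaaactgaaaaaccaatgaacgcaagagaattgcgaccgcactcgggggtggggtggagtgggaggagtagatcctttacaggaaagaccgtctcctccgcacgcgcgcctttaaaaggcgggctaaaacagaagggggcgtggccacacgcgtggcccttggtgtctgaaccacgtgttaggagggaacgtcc
The capitals in the Ndufaf4 sequence mark GCATGCG, a core of the binding motif of the respiratory gene regulator NRF1, read on both strands, where it overlaps itself. The Atp5sl stretch held no match to the 4 motifs searched, while its full window, which runs 50 bases past the start, held AAGATGG, the YY1 letters.

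The remaining assembly factors of complex I stayed below the threshold. All 8 were tested, and with the called pair included 5 had a fitted change above 0 and 3 below it (median 0.18). Ndufaf1, an intermediate-assembly factor, ranged from 4.40 to 5.03 CPM in Tw2- and from 5.77 to 9.17 CPM in Tw2+ without overlap (log2 fold change 0.60, edgeR adjusted p = 0.160). Ndufaf3, the partner of Ndufaf4, ranged from 5.49 to 7.74 CPM in Tw2- and from 3.33 to 5.85 CPM in Tw2+, which overlapped (log2 fold change -0.59, edgeR adjusted p = 0.199). Ndufaf7, a methyltransferase that acts on a core subunit, had a log2 fold change of -0.24 (edgeR adjusted p = 0.497). A list of assembly factors for all complexes outside the symbol rule had 33 tested genes and 0 calls in edgeR. Those nearest to the threshold were Tmem70, a factor for ATP synthase (0.58, edgeR adjusted p = 0.0822), and Sco1, a copper chaperone for complex IV (0.97, edgeR adjusted p = 0.0890).

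Complex I subunits leaned slightly lower in Tw2+, except with an offset for GC content and length (median 0.17, where all genes shifted by 0.18) and with Tw2+ 3 and the unnumbered Tw2- library both left out (0.046). Of 34 tested, 23 had a fitted log2 fold change below 0 and 11 above it, with a median of -0.13, and the 7 core subunits (median -0.15) and the 27 tested accessory subunits (median -0.13) were alike in this. None passed the test. Ndufs8, an iron-sulphur subunit of the arm that passes electrons to ubiquinone, measured 20.6, 25.8 and 21.6 CPM in Tw2- and 17.9, 15.4 and 15.0 CPM in Tw2+. These ranges did not overlap, with a log2 fold change of -0.49 (SE 0.21, edgeR adjusted p = 0.122). Ndufs3, another core subunit of the same arm, went the other way without overlap, from 12.3 to 13.4 CPM in Tw2- and from 13.8 to 18.2 CPM in Tw2+ (log2 fold change 0.37, edgeR adjusted p = 0.2503). Ndufs1, the largest subunit, had a log2 fold change of -0.03 (95% interval -0.46 to 0.41).

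Among the accessory subunits the smallest adjusted p values belonged to Ndufb7, in the distal membrane arm, and to Ndufv3, beside the NADH-binding flavoprotein. Ndufb7 ranged from 17.9 to 23.9 CPM in Tw2- and from 12.9 to 14.3 CPM in Tw2+, with a log2 fold change of -0.55 (SE 0.22, edgeR adjusted p = 0.105). Ndufv3 measured 23.2, 36.1 and 32.2 CPM in Tw2- and 19.5, 23.8 and 13.5 CPM in Tw2+, where Tw2+ 3 overlapped Tw2- 2. Its log2 fold change was -0.68 (SE 0.27, edgeR adjusted p = 0.105). Among the fits that leave out 1 library, Ndufv3 passed only without Tw2+ 3 (-0.88, edgeR adjusted p = 0.0280, up to 0.304 otherwise). Without Tw2+ 3, 42.1% of all genes were called. The abundant accessory subunits Ndufa13 and Ndufa6 had log2 fold changes of -0.03 and -0.19.

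Complex II, which is also the succinate dehydrogenase of the tricarboxylic acid cycle, had the lowest median of the 5 complexes, a log2 fold change of -0.46, and all 4 of its genes had fitted values below 0. None passed in edgeR. Sdha (chr13:74322254-74350280), the flavoprotein that oxidises succinate, measured 137, 157 and 176 CPM in the Tw2- libraries, in the order given above, and 99.8, 121 and 94.0 CPM in Tw2+. The groups did not overlap, and Tw2+ 3 was the highest Tw2+ library. The log2 fold change was -0.58 (SE 0.19, edgeR adjusted p = 0.0647). Sdha passed in DESeq2 (-0.57, adjusted p = 0.0302), which called 25.8% of all genes. In edgeR it passed in 1 of the 6 fits that leave out 1 library, with adjusted p up to 0.237 otherwise. That fit, without Tw2+ 3 (-0.69, edgeR adjusted p = 0.0171), called 42.1% of all genes. Sdhb, the iron-sulphur subunit, ranged from 42.2 to 50.4 CPM in Tw2- and from 32.1 to 39.2 CPM in Tw2+, without overlap (log2 change -0.39, SE 0.18, edgeR adjusted p = 0.158). Of the membrane anchors, Sdhc measured 38.4, 53.4 and 47.8 CPM in Tw2- and 33.3, 37.4 and 26.6 CPM in Tw2+, again without overlap. Its log2 change was -0.52 (SE 0.22, edgeR adjusted p = 0.119). Among the fits that leave out 1 library, Sdhc passed only without Tw2+ 3 (edgeR adjusted p = 0.0423, up to 0.334 otherwise). Sdhd overlapped between the groups, with a log2 fold change of -0.15 (SE 0.19, edgeR adjusted p = 0.602). Thus 3 of the 4 genes separated the groups, all lower in Tw2+, where 19.2% of all genes did so.

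Complexes III and IV had medians above 0 with TMM scaling and below 0 when scaled by library size only (-0.13 and -0.18) or to the fibroblast markers (-0.55 and -0.59), where the median of all genes moved by -0.28 and -0.70. Of 9 complex III subunits 6 had fitted changes above 0 (median 0.15), and every 95% interval lay within a 2-fold change. Cyc1, the cytochrome c1 that hands electrons to cytochrome c, measured 48.9, 49.6 and 56.9 CPM in Tw2- and 62.8, 48.6 and 77.2 CPM in Tw2+. Tw2+ 3 lay below every Tw2- library and the other Tw2+ libraries above them (log2 change 0.28, SE 0.21, edgeR adjusted p = 0.367). In the Rieske protein gene Uqcrfs1, Tw2+ 3 was again below every Tw2- library and the other Tw2+ libraries above them, at 58.1, 38.5 and 57.5 CPM against 40.3 to 45.5 CPM in Tw2- (log2 fold change 0.26, edgeR adjusted p = 0.391). The hinge protein gene Uqcrh and the core protein gene Uqcrc2 had log2 fold changes of 0.15 and -0.13.

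Of 13 tested complex IV subunits 9 had fitted changes above 0 (median 0.10, or -0.002 without Tw2- 2 and 0.25 without Tw2+ 3), and 3 had an unadjusted p under 0.05. Cox7a2, the form of its subunit found in most tissues, measured 22.8, 21.6 and 29.6 CPM in Tw2- and 41.8, 28.1 and 44.4 CPM in Tw2+. Tw2+ 3 fell within the Tw2- range. The log2 fold change was 0.63 (SE 0.24, edgeR adjusted p = 0.0973). Among the fits that leave out 1 library, Cox7a2 passed only without Tw2+ 3 (0.81, edgeR adjusted p = 0.0131, up to 0.339 otherwise). Without Tw2+ 3, 42.1% of all genes were called. Cox8a, the widely expressed form of subunit 8, ranged from 29.3 to 33.3 CPM in Tw2- and from 38.0 to 46.8 CPM in Tw2+, without overlap (log2 fold change 0.42, edgeR adjusted p = 0.131). Cox4i1, Cox6c and Ndufa4 overlapped between the groups, with log2 fold changes of -0.09, 0.34 and -0.08.

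Cox7c (chr13:86044816-86046904) had the smallest adjusted p of complex IV, and its value depended on how near-identical copies were counted. Its own row held 5.37, 4.19 and 5.66 CPM in Tw2- and 8.64, 7.40 and 11.9 CPM in Tw2+, without overlap (log2 change 0.88, SE 0.29, edgeR adjusted p = 0.0649). Of the 50-base windows of its transcripts, 53.0% occur in another gene too. The row of one such copy, Gm12338, held 3134 counts over the 6 libraries against 548 for Cox7c, and had a log2 fold change of -0.05 (edgeR adjusted p = 0.865). With Gm12338 added, the level of Cox7c was 40.8, 45.7 and 45.6 CPM in Tw2- and 51.4, 39.2 and 50.1 CPM in Tw2+. The groups then overlapped. Adding copies was a step chosen after seeing the data. The fit also added the copy Gm10012, which held 4 counts over the 6 libraries. It gave a log2 fold change of 0.09 (SE 0.19, edgeR adjusted p = 0.763).

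Windows of other genes of the set were shared too, counted on either strand, so that overlapping neighbours count as well as copies elsewhere. Of the 90 genes, 47 share at least 1 such window with another gene. At least 10% of the windows are shared by 30 genes and at least 50% by 4: Atp5g2 (87.4%), Atp5l (84.9%), Cox7c and Atp5o (50.3%). For Atp5o the sharers include another annotated Atp5o entry and the antisense D430001F17Rik. Copies outside the set, at another locus, with their own row and at least 10% of the windows, were found for 2 genes, Cox7c and Ndufs5. The complex I subunit Ndufs5 had no count in any library, while its copy BC002163 held 1005 counts, at 10.3 to 14.6 CPM in Tw2- and 11.1 to 11.5 CPM in Tw2+ (log2 fold change -0.21, edgeR adjusted p = 0.544). Atp5g2, a gene for the ring subunit c of ATP synthase, and Ndufb4, a membrane-arm subunit of complex I, stayed at or below 1.007 and 0.605 CPM in every library and were not tested. Values of these genes are uncertain in level for that reason. The testis isoform Cox8c reached at most 0.0864 CPM, and Cox7b2 had no count.

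ATP synthase subunits centred on 0, with a median log2 fold change of -0.04 over 14 tested subunits, 6 above 0 and 8 below (0.02 without Tw2+ 3). Atp5b, the catalytic beta subunit, was the highest of the set per kilobase of exon, at 282 CPM per kilobase in Tw2- and 298 in Tw2+. It measured 522, 497 and 603 CPM in Tw2- and 604, 477 and 630 CPM in Tw2+, which overlapped, with a log2 fold change of 0.08 (95% interval -0.40 to 0.55). Its partner in the catalytic head, Atp5a1, had a log2 fold change of 0.25 (95% interval -0.22 to 0.71). Atp5j2, subunit f of the membrane part, ranged from 33.1 to 38.0 CPM in Tw2- and from 25.5 to 31.5 CPM in Tw2+ without overlap (log2 fold change -0.32, edgeR adjusted p = 0.240). Atp5l, subunit g, ran without overlap from 1.45 to 1.49 CPM in Tw2- and from 1.99 to 2.52 CPM in Tw2+ (0.59, edgeR adjusted p = 0.230), but 84.9% of its windows occur elsewhere.

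**Figure D2:**
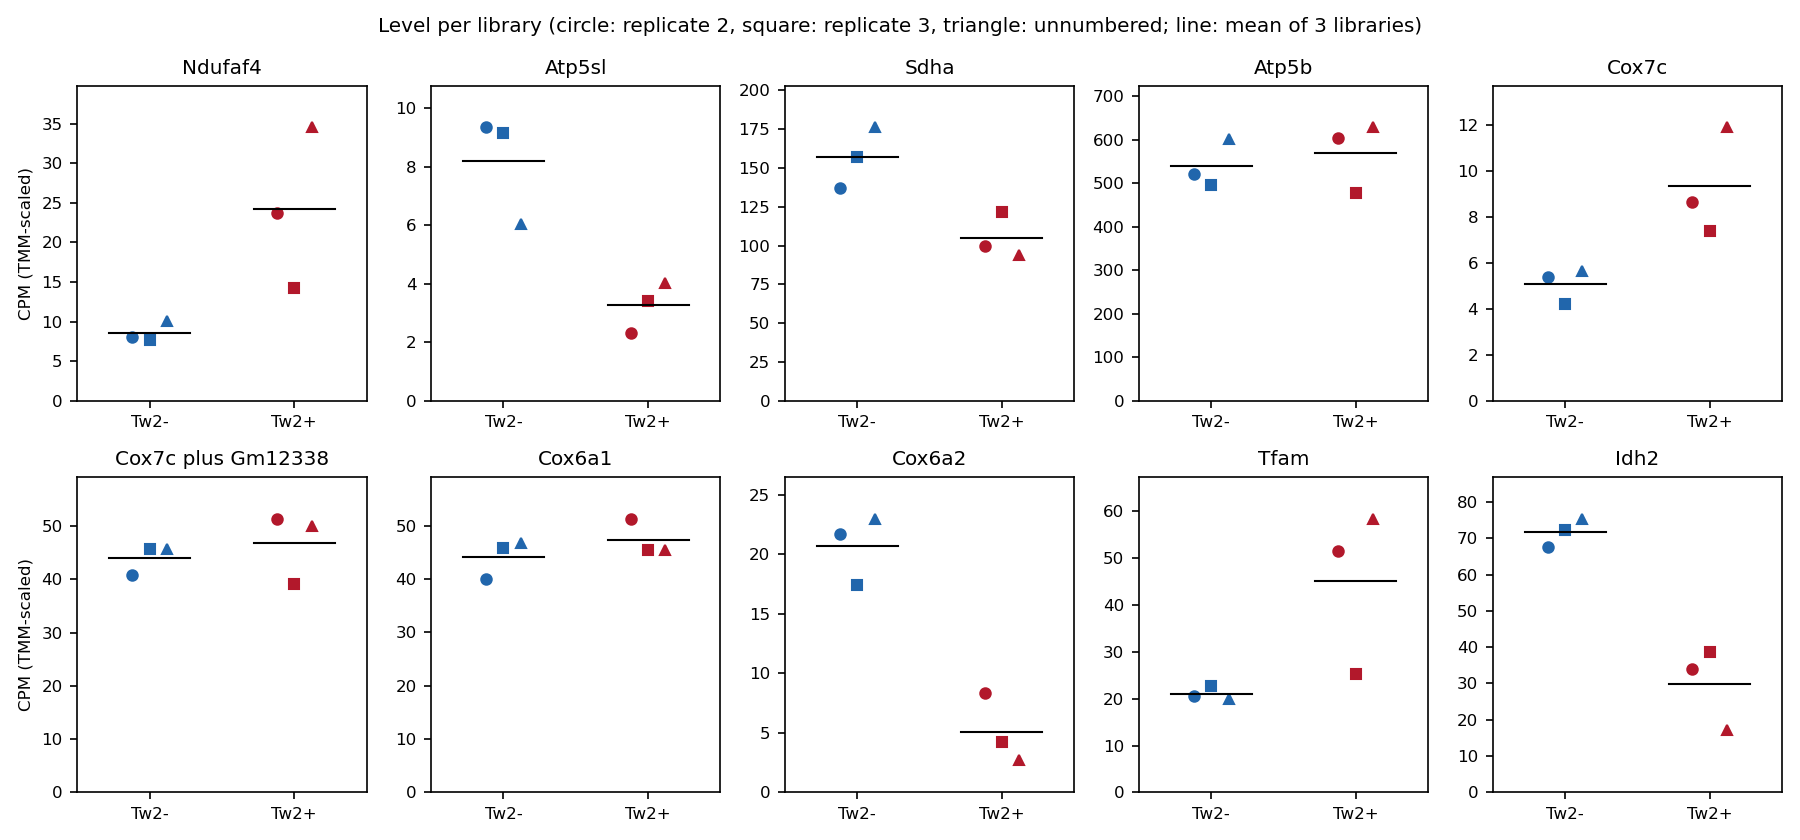
CPM, the counts scaled by library size and TMM factors, in each of the 6 libraries for genes named in the text, with a line at each group's mean and every vertical axis starting at 0. Ndufaf4 and Atp5sl separate the groups in opposite directions, Atp5b overlaps, and Cox7c separates the groups alone but overlaps once its copy Gm12338 is added.

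Within a library, the mean log2 CPM of each complex was set against the mean of all 74 tested subunits, which removes a shift common to the whole set in that library. Complex II stood above that mean by 1.10, 1.24 and 1.10 log2 units in Tw2- 2, Tw2- 3 and the unnumbered library, and by 0.74, 0.98 and 0.63 in Tw2+. The groups did not overlap, and the difference was -0.36. Complex IV stood below the mean by log2 differences of -0.47, -0.58 and -0.59 in Tw2- and -0.38, -0.45 and -0.32 in Tw2+, again without overlap, a difference of 0.16. Complexes I, III and V differed by -0.06, 0.11 and 0.04. Relative to the median of all genes under the same setting, the complex II median lay between -0.52 and -0.36 over 20 settings, which share most libraries, and was the lowest of the 5 complexes in all 20. The medians of complexes III and IV lay above 0 in all 20, at 0.034 to 0.279 and 0.034 to 0.375. Complex V ranged from -0.09 to 0.163. Complex I ranged from -0.175 to 0.075, above 0 only with Tw2+ 3 and the unnumbered Tw2- library both left out.

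**Figure D3:**
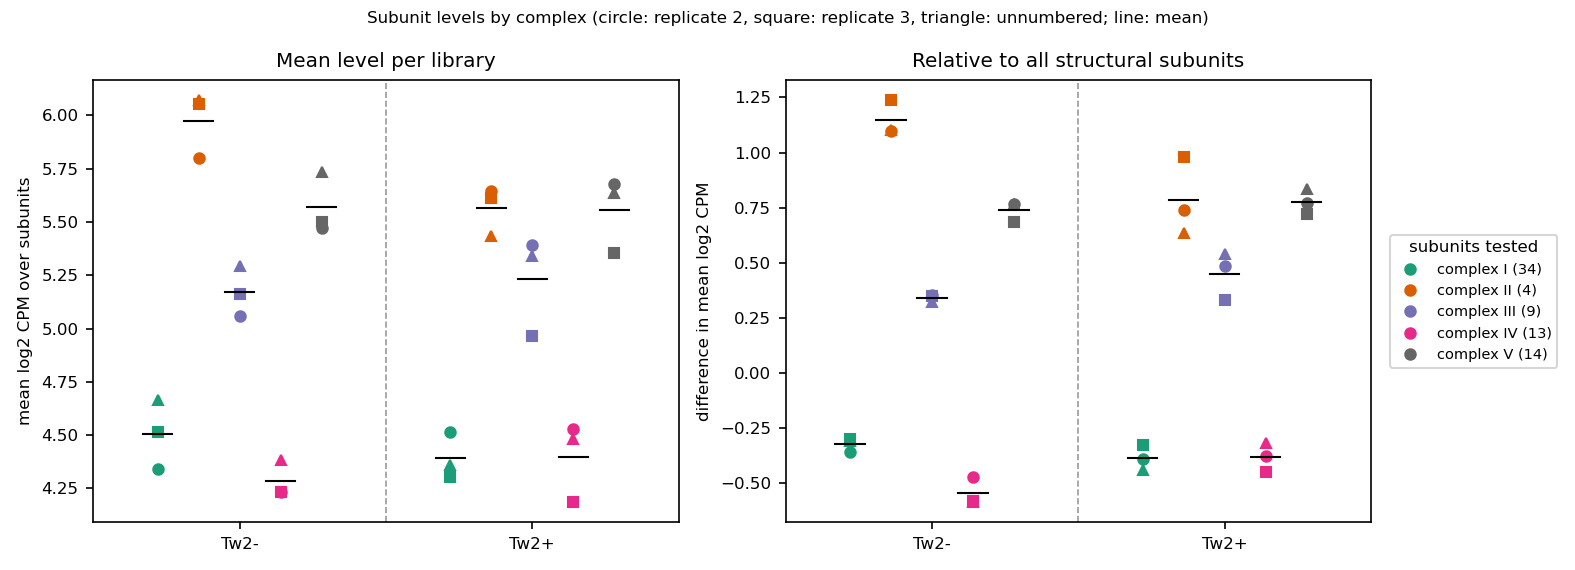
Mean log2 CPM over the tested subunits of each complex in the 6 libraries, as such at left and minus the mean over all 74 tested structural subunits at right, with short lines for group means and the number of subunits in the key. Complex II lies lower in Tw2+ than in Tw2- in both panels without overlap, and complex IV lies higher in Tw2+ in the right panel.

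The muscle isoforms of complex IV, which the symbol rule left out, moved with the cardiomyocyte markers. Cox6a2 measured 21.7, 17.4 and 23.0 CPM in Tw2- and 8.38, 4.23 and 2.72 CPM in Tw2+. It fell by 2.01 on the log2 scale (SE 0.39, edgeR adjusted p = 0.0101), or 4.03-fold. Cox7a1 fell by 1.70 (SE 0.45, edgeR adjusted p = 0.0345), and Cox8b had a log2 fold change of -1.89 that missed the threshold (edgeR adjusted p = 0.0568). Cox6a2 passed with any 1 library left out, and Cox7a1 only with Tw2+ 2 or Tw2+ 3 left out (edgeR adjusted p up to 0.107 otherwise). Per kilobase of exon, Cox6a2 made up 31.3%, 24.2% and 29.3% of the sum with its widely expressed counterpart Cox6a1 in Tw2-, and 12.1%, 7.26% and 4.79% in Tw2+. The mean share was 28.3% ± 3.65 in Tw2- and 8.03% ± 3.70 in Tw2+ (SD, n = 3; exact two-sided permutation p = 0.1, the smallest that 3 against 3 allows, adjusted p = 0.16 over 8 isoform pairs). Cox7a1 made up 33.8% ± 2.46 of its pair with Cox7a2 in Tw2- and 8.84% ± 4.50 in Tw2+, and Cox8b 16.1% ± 2.88 and 3.53% ± 2.69 of its pair with Cox8a, with the same exact permutation p of 0.1 (n = 3). The summed cardiomyocyte markers ran from 908 to 1721 CPM in Tw2- and from 175 to 575 CPM in Tw2+, with Tw2+ 2 the highest Tw2+ library for these markers and for all 3 shares. Among the Tw2- libraries, Tw2- 3 was the lowest for the markers and for all 3 shares. The unnumbered library was the highest for the markers and the Cox8b share, but Tw2- 2 for the Cox6a2 and Cox7a1 shares. The part of the cardiomyocyte markers in the isoform shares was not tested. Complex II relative to all tested subunits was highest in Tw2- 3 and Tw2+ 3 within their groups. Summed macrophage and monocyte markers were also highest in these libraries. In the order given above they were 5079, 6271 and 2859 CPM in Tw2- and 292, 400 and 188 CPM in Tw2+. The cardiomyocyte markers were lowest in Tw2- 3 and highest in Tw2+ 2. The part of either marker list in the lower complex II was not tested.

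**Figure D4:**
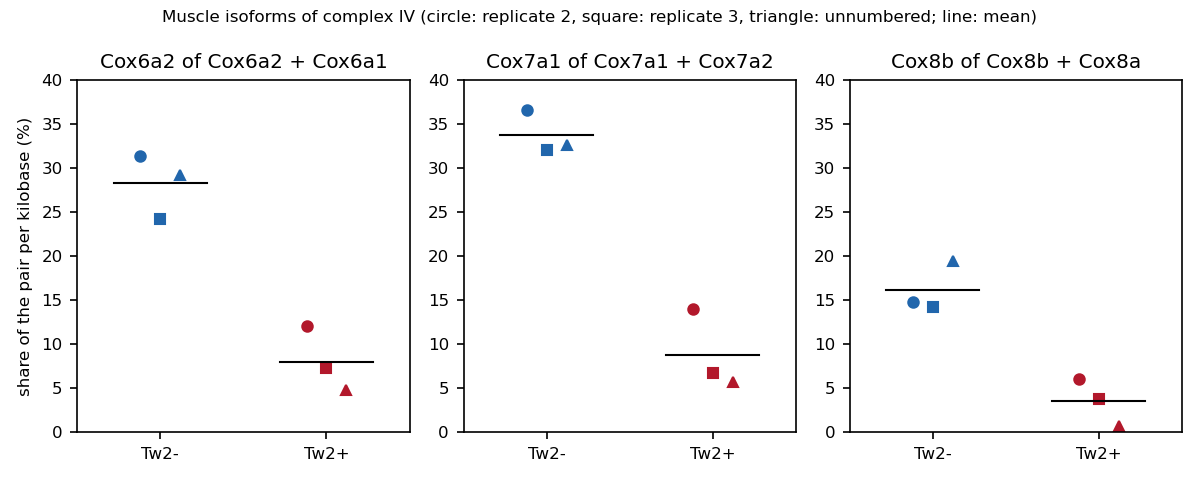
Share of each muscle isoform in the sum with its widely expressed counterpart, from counts per kilobase of exon, in percent on axes from 0 to 40, with 1 point per library and a line at each group's mean. In all 3 pairs every Tw2+ library lies below every Tw2- library.

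The other 5 isoform pairs differed by fewer percentage points. Cox7a2l, which encodes a protein that joins complexes III and IV into supercomplexes, made up 67.8% ± 2.51 of its pair with Cox7a2 in Tw2- and 61.2% ± 1.56 in Tw2+. Atp5g1 made up 2.58% ± 0.200 of its pair with Atp5g3, both of which encode subunit c, in Tw2- and 1.84% ± 0.105 in Tw2+. The transcript lengths taken were 4715 bases for Atp5g1 and 723 for Atp5g3, so the level of this share depends on the transcript chosen. Before division by length, the mean levels of Atp5g1 and Atp5g3 were 20.02 and 115.1 CPM in Tw2- and 14.95 and 122.8 CPM in Tw2+. Neither pair overlapped between the groups, and each had an exact permutation p of 0.1 (n = 3, adjusted p = 0.16). Cox4i2, the isoform of subunit 4 known for its induction in low oxygen, made up 4.35% ± 1.70 and 2.69% ± 1.06 of its pair with Cox4i1 (exact permutation p = 0.2, n = 3). Ndufa4l2, a paralogue also induced in low oxygen, made up 26.4% ± 4.28 and 25.3% ± 9.48 beside Ndufa4, and Cox6b2, a testis isoform, 2.68% ± 0.557 and 2.11% ± 0.629 beside Cox6b1, both overlapping.

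Around the respiratory chain, 4 of the calls lay among the regulators of mitochondrial biogenesis. Of 14 tested regulators of biogenesis, 3 rose and 1 fell, where 18.2% of all genes were called. Tfam, which packages mitochondrial DNA and helps to start its transcription, measured 20.6, 22.6 and 20.03 CPM in Tw2- and 51.6, 25.2 and 58.4 CPM in Tw2+ (log2 change 1.09, SE 0.30, edgeR adjusted p = 0.0391). Tfb2m, a mitochondrial transcription factor, rose by 1.51 (SE 0.35, edgeR adjusted p = 0.0224), and Pprc1, a coactivator, by 1.16 (SE 0.27, edgeR adjusted p = 0.0228). In all 3 genes Tw2+ 3 was the lowest Tw2+ library. Esrra, which encodes the nuclear receptor ERR alpha, fell from 20.4 to 21.8 CPM in Tw2- to 9.67 to 15.5 CPM in Tw2+ (-0.81, SE 0.24, edgeR adjusted p = 0.0491). Nrf1, Gabpa and Ppargc1a, further regulators of respiratory genes, had log2 fold changes of 0.41, 0.23 and -0.43 (edgeR adjusted p = 0.240, 0.377 and 0.555). The calls of Tfam, Tfb2m and Esrra were lost on leaving out any library other than Tw2+ 3, with edgeR adjusted p up to 0.137, 0.111 and 0.192, and that of Pprc1 on leaving out any but Tw2+ 3 or Tw2- 2 (up to 0.115). Relative to the fibroblast markers the log2 changes of Tfam, Tfb2m and Pprc1 were 0.35, 0.75 and 0.41 and did not pass, while Esrra passed (-1.48).

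Of 17 tricarboxylic acid cycle genes 2 fell, a share close to the 10.8% of all genes called lower. Idh2, the NADP-dependent isocitrate dehydrogenase of mitochondria, measured 67.7, 72.2 and 75.4 CPM in Tw2- and 33.9, 38.6 and 17.2 CPM in Tw2+ (-1.26, SE 0.29, edgeR adjusted p = 0.0201). Ogdh, a subunit of oxoglutarate dehydrogenase, fell by 0.79 (SE 0.21, edgeR adjusted p = 0.0354). The list median was -0.05, however, and the other 15 genes did not pass. Of 20 genes of the large subunit of the mitochondrial ribosome 1, Mrpl3, rose (0.94, SE 0.26, edgeR adjusted p = 0.0391), a share below the 7.41% of all genes called higher, and the list median was 0.31. None of 13 electron carriers and exchangers passed in edgeR, and nearest was Atpif1, the inhibitor of ATP synthase (-0.89, edgeR adjusted p = 0.0548). Ogdh and Mrpl3 passed only with Tw2+ 3 left out among the 6 fits that leave out 1 library (edgeR adjusted p up to 0.156 and 0.160), and Idh2 with Tw2+ 3 or the unnumbered Tw2+ library left out (up to 0.0674). Relative to the fibroblast markers Idh2 (-1.93) and Ogdh (-1.45) passed and Mrpl3 (0.21) did not.

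The genes share features of position and promoter that the symbol rule did not use. They lie on 19 chromosomes. Their median exonic length was 1789 bases against 4521 for all genes tested, and their median GC content 50% against 49.7%. Of the 85 tested, 34 (40%) have a coding neighbour on the opposite strand whose start lies within 1000 bases, head to head, whereas 15.4% of 12729 tested coding genes do. In 12 of the 34 pairs the 5′ ends overlap, so that reads of those pairs may be mixed, and in 22 there is a gap between the starts. Of 29 such neighbours tested, 6 were higher in Tw2+ and none lower, beside 7.41% and 10.8% of all genes, and none of their 6 partners in the set passed.

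Esf1, whose protein acts in ribosomal RNA processing, measured 31.0, 18.3 and 28.9 CPM in Tw2- and 97.4, 35.6 and 115 CPM in Tw2+ (log2 fold change 1.66, edgeR adjusted p = 0.0270). The assembly factor Ndufaf5, which starts on the other strand beside it, measured 5.13, 4.94 and 5.73 CPM in Tw2- and 5.53, 4.72 and 6.15 CPM in Tw2+ (0.05, 95% interval -0.55 to 0.66). Wdr77, a partner of the arginine methyltransferase Prmt5, rose by 1.94 (edgeR adjusted p = 0.0102) beside 0.20 for Atp5f1, and this is the one pair among the 6 whose 5′ ends overlap. Wdr4, a subunit of a tRNA methyltransferase, rose by 1.14 (edgeR adjusted p = 0.0169) beside -0.68 for Ndufv3. Cebpz rose by 1.25 (edgeR adjusted p = 0.0325) beside -0.24 for Ndufaf7, Gdf9, a growth factor of oocytes, by 2.46 (edgeR adjusted p = 0.0160) beside 0.03 for Uqcrq, and Ercc8, a protein of transcription-coupled repair, by 1.19 (edgeR adjusted p = 0.0439) beside 0.61 for Ndufaf2. With 1 library left out, Wdr77 and Gdf9 were lost without Tw2- 3 (edgeR adjusted p = 0.0564 and 0.0772), Wdr4 without any but Tw2+ 3 or Tw2- 2 (up to 0.0937), and Esf1, Cebpz and Ercc8 without any but Tw2+ 3 (up to 0.120, 0.146 and 0.184). Relative to the fibroblast markers Wdr77 and Gdf9 passed and the other 4 did not. Of the exonic length of Ndufaf2, 65.6% is overlapped by B230220B15Rik on the opposite strand, so reads of Ndufaf2 may be mixed. The difference between neighbours was not tested. The bases between the RefSeq starts of a pair, from GRCm38.p6 and written on the strand of the gene named first, show how close such starts lie, at 87 and 112 bases.
Ndufaf5 and Esf1, chr2:140170559-140170645, + strand: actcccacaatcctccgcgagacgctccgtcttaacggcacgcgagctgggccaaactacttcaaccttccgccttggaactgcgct
Ndufaf2 and Ercc8, chr13:108158626-108158737, - strand: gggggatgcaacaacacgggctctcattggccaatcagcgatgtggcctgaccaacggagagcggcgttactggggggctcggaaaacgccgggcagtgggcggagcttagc
Neither stretch held one of the 4 motifs searched.

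**Figure D5:**
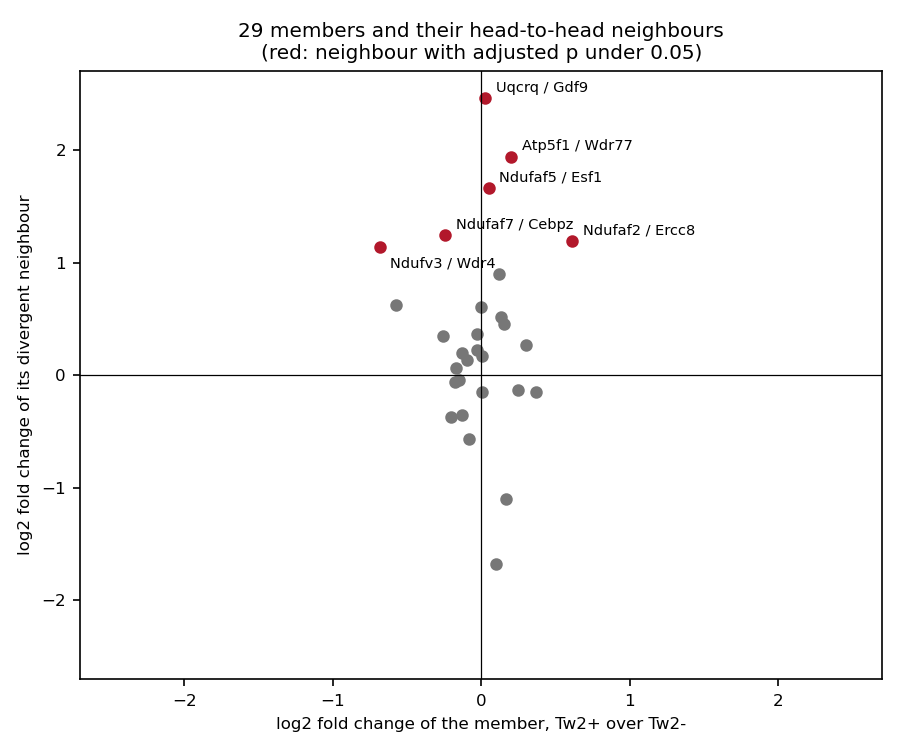
Log2 fold change, Tw2+ over Tw2-, of 29 genes of the set on the horizontal axis and of the neighbour that starts on the opposite strand within 1000 bases on the vertical axis, with 1 point per pair. The 6 red points, with both genes named, are neighbours that passed at an adjusted p under 0.05, and all lie above 1 on the vertical axis while their partners lie between -0.68 and 0.61.

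RefSeq windows of 300 bases, from 250 before to 50 after a start, were matched for 74 of the 90 genes and gave 80 windows. On either strand, GCATGCG (NRF1) was present in 16.2% of them, against 6.03% of 13307 windows of tested genes and 3.57% of 32817 windows in all. CCGGAAG (GABPA) was present in 21.2%, 16.4% and 8.86%, AAGATGG (YY1) in 16.2%, 6.87% and 6.34%, and AAGGTCA (ERR alpha) in 10%, 3.1% and 4.72%, in the same order. A match is a description of the sequence and not a binding site, and the differences were not tested. The 13 genes with the NRF1 letters include Ndufaf4, Ndufaf5, Cox6a1, Sdhb, Uqcrc1 and Atp5j. Of these 13, Atp5g2 was not tested and 1, Ndufaf4, passed, where 18.2% of all genes tested were called.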

How the data were processed

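Sorted Tw2+ and Tw2- cells were profiled by bulk RNA sequencing, with 3 libraries per group. The authors deposited raw counts, as a whole number for each symbol in each library. TopHat2 2.0.0, DESeq2 1.6.3, GRCm38 and mm10 are named, without their roles, per the submitters' processing notes. How reads were counted, with which strand setting and annotation, was not given in the sources used here, so reads of genes that overlap on opposite strands cannot be separated. Column names gave 4 libraries a number (2 or 3) and 2 only a group. The latter are called unnumbered, and 0 columns were left unused. The design text calls the libraries biological replicates. Single-cell data were not analysed here.

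All genes were tested with edgeR 4.0.16 in R 4.3.3 (glmQLFit, glmQLFTest, TMM factors of 0.846 to 1.13), after filterByExpr at a minimum count of 10 left 13180 of 24062 genes. Benjamini-Hochberg adjustment ran over all of them, and a call needed an adjusted p under 0.05. CPM use TMM-scaled sizes. The mean log2 CPM over subunits took no prior count, while the correlations between libraries and the GC and length offset used log2 CPM with a prior count of 2. Total counts were 11746696 to 16447098. On the TMM-scaled sizes of the tested genes 3 counts stood at 0.161 to 0.302 CPM, a floor for counting error only. The tests were checked on simulated counts. Positions, exonic lengths and windows of 50 bases shared between transcripts came from GENCODE M21, and promoter windows from RefSeq.

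The members and lists were chosen with earlier results of these data known. Named genes were those past the test, in each group (complex I core, accessory and assembly, and complexes II to V) the 2 with the smallest adjusted p and the 2 of highest CPM, the Sdh genes and the isoform pairs. Of each context list up to 2 genes were named by adjusted p, with Ppargc1a, Nrf1, Gabpa, Esrra and Tfam. Ndufaf1, Ndufaf2, Ndufaf3, Ndufaf5, Atp5f1, Uqcrq, Cox8a, the untested genes, the copies and the neighbours were named after their values were seen. A gene that the rule takes is not reported here by name, though counts and medians include it. Alternatives were DESeq2 1.42.0, limma-voom (limma 3.58.1), scaling by RLE, by upper quartiles or by library size, no filter on low counts, a minimum of 50 counts in 3 libraries, a threshold of 0.01, a replicate block, an offset for GC content and length (splines with 5 degrees of freedom), complexes assigned by symbol and each library left out. Chosen after seeing the data were scaling to 13 fibroblast markers, a fit that drops Tw2+ 3 together with the unnumbered Tw2- library, the 4 numbered libraries unpaired, and copies added.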

Additional observations from a re-analysis of the deposited data

How the results depend on the processing

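The numbers of genes called higher and lower were 1 and 1 in edgeR, and also with limma-voom, RLE or upper-quartile scaling, either filter and copies added. Of all genes, 15.4% to 18.2% were called in these settings. The numbers were 2 and 2 with DESeq2 (25.8% of all genes called) and 1 and 6 with library size only (3.07% higher and 13% lower). They were 6 and 1 with the GC and length offset (17.1% higher and 9.59% lower), and 0 and 0 at an adjusted p under 0.01 (6% of all genes). Leaving out each library gave 0 to 4 higher and 0 to 4 lower, with 4 and 4 without Tw2+ 3, when 42.1% of all genes were called, against 0 and 0 without Tw2- 2, Tw2- 3 or Tw2+ 2, when 9.42%, 6.71% and 7.52% of all genes were called. With Tw2+ 3 and the unnumbered Tw2- library both left out they were 6 and 4 (41.7% of all genes), and relative to the fibroblast markers 0 and 54 (39.1% of all genes).

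Scaling by library size only, with the GC and length offset and to the fibroblast markers moved the median of all genes by -0.28, 0.18 and -0.70, and the other medians with it. In that order the medians were -0.33, 0.26 and -0.75 for all 85 genes, -0.42, 0.17 and -0.83 for complex I, -0.73, -0.21 and -1.14 for complex II, -0.13, 0.47 and -0.55 for complex III, -0.18, 0.37 and -0.59 for complex IV and -0.32, 0.26 and -0.74 for complex V. Relative to all genes they were -0.15, -0.02 and -0.14 for complex I, -0.45, -0.41 and -0.45 for complex II, 0.14, 0.28 and 0.13 for complex III, 0.10, 0.17 and 0.09 for complex IV and -0.04, 0.07 and -0.05 for complex V. Without both libraries the medians were 0.10 for all 85 genes, 0.046 for complex I, 0.35 for complex IV and 0.13 for complex V, and leaving out each library put complex IV between -0.002 and 0.25. The cause of the changes without libraries was not tested. Relative to the fibroblast markers the fold changes of Uqcrh (-0.55), Atp5b (-0.63), Cox6b1 (-0.61), Cox7b (-0.68) and Atp5g3 (-0.62) turned negative and passed.

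The numbers 2 and 3 recur in both groups, and the deviations of same-numbered libraries correlated across genes at 0.20 and 0.56. The unnumbered libraries correlated at 0.24 and the remaining combinations at -0.42 to 0.12, a hint from the data and not from the design. No label pairs the unnumbered libraries, so with 2 numbered pairs the libraries are taken to share a number, and a block over 3 pairs was not run. With the replicate block on these 4 libraries 1 gene was called higher and 1 lower, beside 9.61% and 16.3% of all genes. Without the block the numbers were 0 and 1, beside 0.85% and 8.83% of all genes. The complex II median with the block was -0.38. At 3 counts per 0.161 to 0.302 CPM, depth limits what can be said of Cox8c, which stayed below that floor.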

Other observations

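The tested subunits moved together between libraries of 1 group. Tw2+ 3 was the lowest Tw2+ library for 51 of 74 subunits (68.9%) against 43.6% of all genes tested, and Tw2+ 2 the highest for 45 (60.8%) against 22.0%. Among the Tw2- libraries, Tw2- 2 was the lowest for 55 subunits (74.3%) against 40.2% of all genes, and the unnumbered library the highest for 56 (75.7%) against 32.7%. The mean log2 CPM over all 74 subunits was 4.70, 4.81 and 4.97 in Tw2- 2, Tw2- 3 and the unnumbered library and 4.91, 4.63 and 4.80 in Tw2+. The groups thus overlapped, with a difference of -0.05 between means whose SD was 0.14 in each group (n = 3). Summed epicardial and mesothelial markers were highest in Tw2+ 3, at 180 CPM against 58.1 and 74.1 CPM in the other Tw2+ libraries and 55.4 to 120 CPM in Tw2-, and none of those 8 markers passed in edgeR. Tw2+ 3 was also the highest Tw2+ library for summed endothelial markers (1269 against 791 and 673 CPM) and for macrophage and monocyte markers (400 against 292 and 188 CPM). The unnumbered Tw2- library was the lowest Tw2- library for endothelial markers (1018 against 2604 and 2452 CPM) and for macrophage and monocyte markers (2859 against 5079 and 6271 CPM), and the highest for cardiomyocyte markers (1721 against 1403 and 908 CPM). The part of these markers in the order of the libraries was not tested.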
